A study of Mus musculus with 6 samples.

Results

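Imprinted genes are expressed mainly or wholly from the copy inherited from 1 parent. Most of them lie in clusters in which a methylated control region, a long noncoding RNA or both keep the copy from the other parent silent, and many act on growth, placental function and brain development. Dlk1, the gene that leads this set, encodes a membrane-bound and secreted protein with EGF-like repeats that is related to Notch ligands and is known for restraining differentiation of precursor cells. A list of 40 mouse imprinted genes was examined in the developing neocortex with and without the transcription factor Bcl11a, and 31 of them had a probe set that the array annotation assigns to that gene alone, out of 19938 genes tested. Mirg, Gnas, Snrpn and Ube3a were present only in probe sets that several genes share, and H19, Kcnq1ot1, Slc22a3, Zrsr1 and Peg13 were not listed by the annotation; these 9 have no value here.

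Neocortex was taken from 6 mouse embryos on embryonic day 14.5, and the RNA of each embryo was measured on its own array (Affymetrix Mouse Gene 1.0 ST). The 3 controls were Bcl11a+/+ and the 3 mutants Bcl11aΔflox/Δflox, that is, with the deleted form of the floxed allele on both chromosomes. Neither the Cre driver nor the cells that lost the allele could be taken from the sources used here. Values are log2 expression, a difference is mutant minus control, and a gene was called when the limma p-value, adjusted over all genes tested, was under 0.05. Bcl11a fell by 0.84 on the log2 scale (limma adjusted p = 0.00201). Correlations between arrays lay between 0.993 and 0.997, and by Xist the sexes were split 2 females and 1 male in the controls and 1 female and 2 males in the mutants. Tissue markers of neocortical excitatory neurons and cortical progenitors were above the median level of all genes for 10 of 10 and 12 of 12 measured markers.

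Upstream sequence is shown for Dlk1, the member that rose, and for Meg3, the noncoding RNA that starts next in the same cluster and is expressed from the other parent's chromosome. Each is the 250 bases before the start site in RefSeq (GRCm38.p6, plus strand, 5′ to 3′), at chr12:109452573-109452822 for Dlk1 and chr12:109540746-109540995 for Meg3. RefSeq lists a second start site for Meg3, and its window, at chr12:109545148-109545397 and not shown, holds no CpG and neither of the motifs searched.
Dlk1: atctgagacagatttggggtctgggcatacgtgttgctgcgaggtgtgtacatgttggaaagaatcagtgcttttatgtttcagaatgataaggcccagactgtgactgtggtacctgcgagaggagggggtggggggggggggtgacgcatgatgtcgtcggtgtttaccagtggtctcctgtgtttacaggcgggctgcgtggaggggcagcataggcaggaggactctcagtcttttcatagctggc
Meg3: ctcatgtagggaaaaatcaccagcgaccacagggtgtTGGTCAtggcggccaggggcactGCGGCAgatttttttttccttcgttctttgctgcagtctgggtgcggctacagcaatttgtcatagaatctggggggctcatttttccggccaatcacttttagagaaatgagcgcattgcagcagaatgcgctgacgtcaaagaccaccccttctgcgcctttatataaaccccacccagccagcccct
Capitals mark matches, on either strand, to TGACCA, the short motif known for Bcl11a, and to TGCCGC, the motif that the imprint maintenance factor Zfp57 reads when its CpG is methylated. The Dlk1 window holds neither motif, and the Meg3 window shown holds 1 of each, both on the minus strand. Among windows of this length, TGACCA is found in 11.4% of 32851 RefSeq promoters and in 5 of 53 promoters of listed genes, those of Grb10, Igf2, Meg3, Slc38a4 and Snrpn. TGCCGC is found in 8.68% of all promoters and in 8 of the 53, which belong to Calcr, Meg3, Mest, Nap1l5, Plagl1, Zdbf2 and Zim1. The median number of CpG dinucleotides per window was 8 in listed genes, the number in the Dlk1 window, and 6 in all promoters. RefSeq promoters matched 33 of the 40 genes, some with several start sites, and a match or its lack is a description of these letters only.

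Dlk1 was higher in every mutant embryo than in any control, and it was the 1 imprinted gene called. Log2 expression of Dlk1 was 8.72, 8.69 and 8.66 in control replicates 1, 2 and 3 and 9.29, 9.34 and 9.28 in mutant replicates 1, 2 and 3. The arrays of each genotype lay close together and the groups were well apart. The mean of Dlk1 (Entrez 13386) was 8.69 ± 0.03 in controls against 9.30 ± 0.03 in mutants (SD over n = 3 arrays in each group). The difference of 0.61 on the log2 scale is a 1.52-fold rise, with a 95% interval of 0.48 to 0.74 (limma adjusted p = 0.00411). It ranked 14 by p-value and 80 by size of difference among all genes tested. An exact two-sided permutation test of the 3 against 3 arrays gave p = 0.1, the smallest value that this design allows. In neocortical tissue as a whole, more RNA per cell and more cells that express a gene cannot be told apart.

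Of the 31 measured imprinted genes, 1 rose, none fell and 30 were not called. Over all 19938 genes, 0.286% were called, 0.246% higher and 0.0401% lower in the mutants. Without adjustment, 5 members had a limma p under 0.05, namely Dlk1, Peg10, Mkrn3, Ppp1r9a and Sgce. All 5 were higher in the mutants, where 4.53% of all genes met this mark, and none was lower, where 1.52% did. The control and mutant arrays did not overlap for 6 members. Dlk1, Peg10, Mkrn3 and Ddc were higher, against 7.69% of all genes, and Nnat and Grb10 were lower, against 2.85% of all genes. The median log2 difference of the 31 members was 0.003, beside 0.02 for all genes, and 16 of the 31 differences were positive, 51.6% against 60.3% of all genes. No filter on low values was applied, and 18 of the 31 had a mean above the median level of all genes, which was 7.92.

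**Figure D1:**
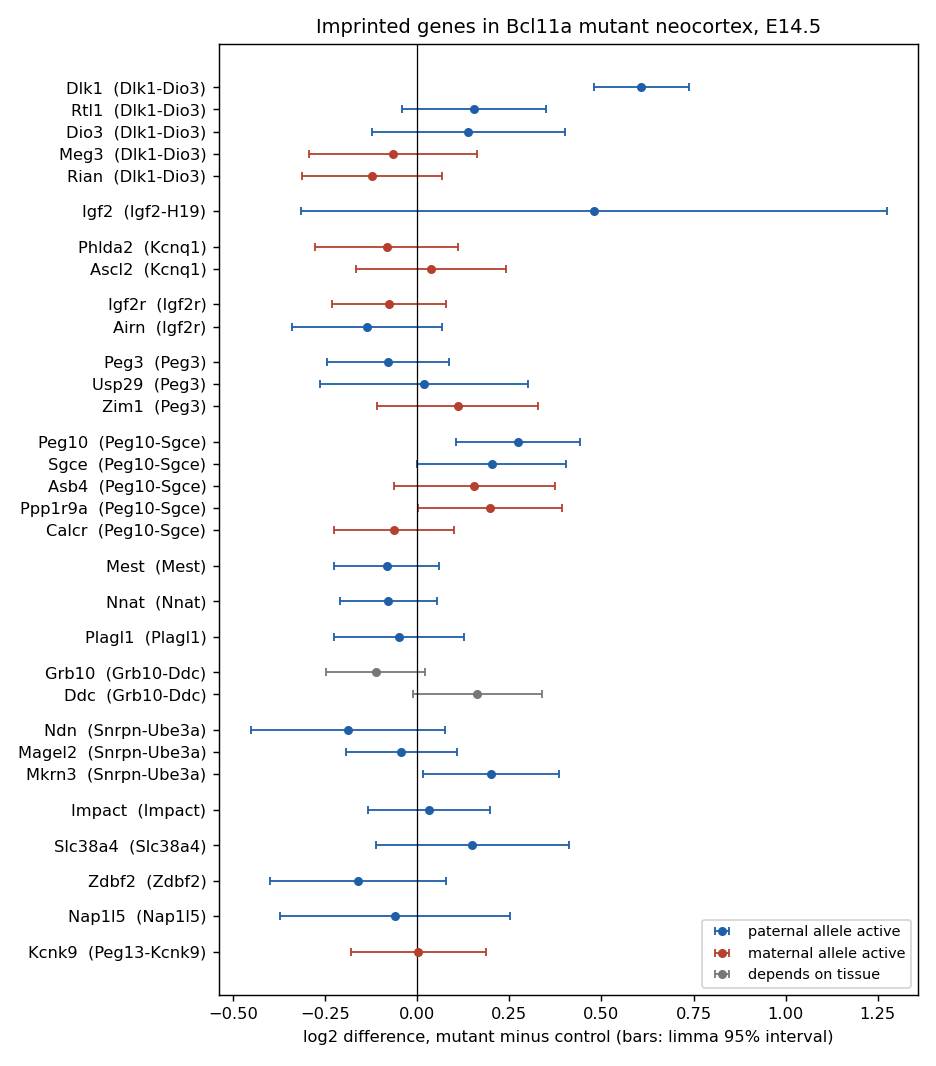
Log2 difference of mutant minus control (x axis) for the 31 measured imprinted genes (y axis, with the cluster in parentheses). Points are limma estimates and bars their 95% intervals. Colours give the parental allele listed as active, which these arrays did not measure. Dlk1 stands at 0.61 with an interval of 0.48 to 0.74, while Igf2, at 0.48, has an interval from -0.31 to 1.27.

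The members were also grouped by parental allele. Of the 19 measured genes listed as active on the paternal chromosome, 10 had positive differences, the median was 0.02 and Dlk1 was the 1 gene called. Of the 10 listed as active on the maternal chromosome, 5 had positive differences, the median was -0.03 and none was called. Grb10 and Ddc, whose active allele depends on the tissue, stood at -0.11 and 0.16. For Igf2r and Ppp1r9a, counted as maternal, the active allele can depend on the tissue as well. The arrays did not measure alleles, and the medians of the allele groups were not tested against each other.

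Dlk1 lies on mouse chromosome 12 at one end of a cluster that ends with Dio3. Its paternal chromosome expresses the protein-coding genes Dlk1, Rtl1 and Dio3, and its maternal chromosome expresses the noncoding RNAs Meg3, Rian and Mirg, which host miRNAs and snoRNAs. Rtl1, a protein-coding gene derived from a retrotransposon, had log2 expression of 6.22, 6.14 and 6.08 in controls against 6.40, 6.37 and 6.13 in mutants. Mutant replicate 3 lay within the range of the controls, and the difference of 0.15 was not called (limma adjusted p = 0.983). Dio3, the deiodinase that inactivates thyroid hormone, differed by 0.14 with overlapping groups (95% interval -0.12 to 0.40). Meg3 differed by -0.07 (-0.29 to 0.16) and Rian by -0.12 (-0.31 to 0.07). The upper ends of these intervals, 0.35 for Rtl1 among them, lie under the lower end of the Dlk1 interval. Rtl1, Dio3 and Rian had means under the median level of all genes.

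**Figure D2:**
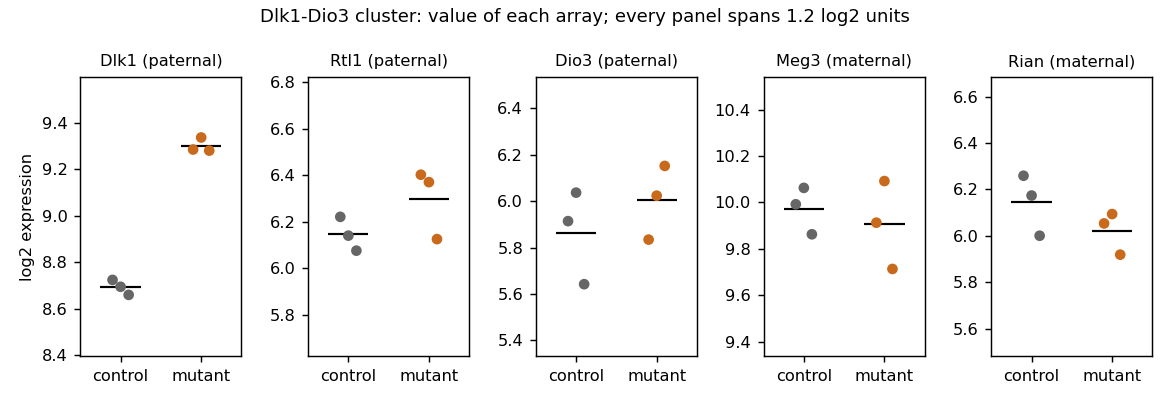
Log2 expression (y axis, the same span of 1.2 in each panel) of the 5 measured genes of the Dlk1-Dio3 cluster in each of the 3 control and 3 mutant arrays (x axis); points are arrays and lines group means. The groups are apart for Dlk1, at 8.69 and 9.30 on average, and overlap for Rtl1, Dio3, Meg3 and Rian.

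The shift of Dlk1 was set against that of each measured neighbour within the same array. Relative to Rtl1, Dlk1 was higher in the mutants by 0.45 on the log2 scale, and relative to Dio3 by 0.47. Relative to the maternal RNAs the shift was 0.67 for Meg3 and 0.73 for Rian. The control and mutant arrays did not overlap in any of these 4 comparisons. The exact two-sided permutation p was 0.1 for each, the smallest possible, and 0.1 after Benjamini-Hochberg adjustment over the 4. For Dlk1 alone, the gap between the groups was wider than the range of each neighbour over all arrays. Both outcomes were therefore fixed by the Dlk1 values and add no separate evidence.

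The same region holds many small RNA genes. From Dlk1 to Dio3, RefSeq lists 103 genes, of which 48 were tested, among them 40 miRNA and 3 snoRNA genes. Apart from Dlk1, none of the other 47 was called (lowest limma adjusted p 0.331). Their differences ran from -0.37 to 0.15 with a median of -0.02, and 18 were positive. Of the 10 tested genes just outside the cluster, 5 on each side, none was called, and their differences lay between -0.13 and 0.05. Begain, Wars and Ppp2r5c are among these flanking genes and were also counted with the further imprinted genes below. Whether a probe set named for a miRNA gene reads its precursor, the long transcript that hosts it or the mature form is unknown here, and 4 of the 40 had a mean above the median level of all genes.

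**Figure D3:**
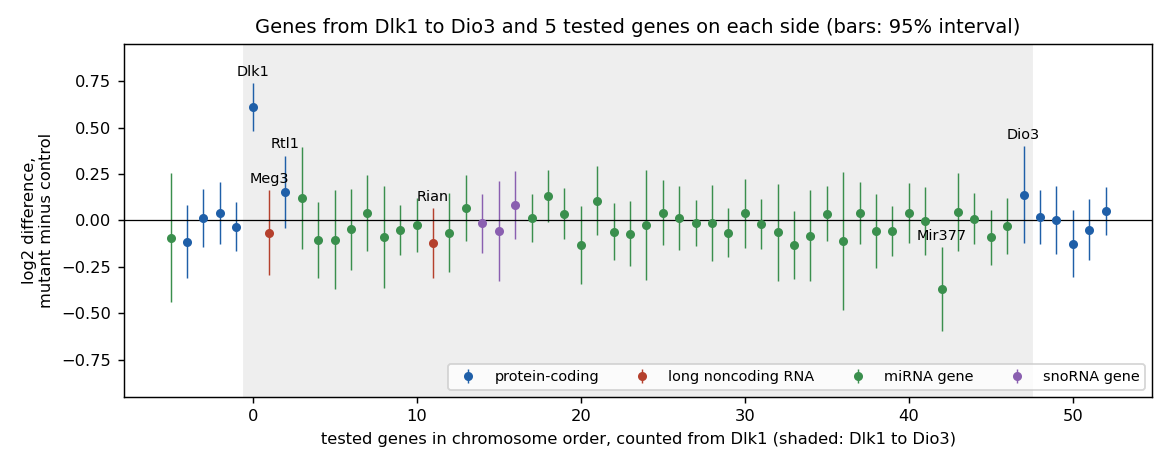
Log2 difference of mutant minus control (y axis) of tested genes in chromosome order (x axis, counted from Dlk1), from Dlk1 to Dio3 (shaded) and for 5 genes on each side; points are limma estimates coloured by gene type and bars 95% intervals. Dlk1 is at 0.61, and the other 47 genes of the shaded stretch lie between -0.37 and 0.15.

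The mature sequences of some of these miRNAs are shown because of their place in the cluster. Mir431, Mir127, Mir434 and Mir136 are transcribed from the maternal chromosome on the strand opposite to Rtl1 and are known to pair with its RNA, and Mir377 had the lowest difference of the stretch. They are RefSeq sequences, 5′ to 3′, with the seed (bases 2 to 8) in capitals.
miR-431-5p: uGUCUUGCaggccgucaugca
miR-127-3p: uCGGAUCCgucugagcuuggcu
miR-434-3p: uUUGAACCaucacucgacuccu
miR-136-5p: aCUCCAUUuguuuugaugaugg
miR-377-3p: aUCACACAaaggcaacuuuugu
No 2 of these share a seed, and the 76 mature sequences of the 40 miRNA genes hold 74 different seeds. The miRNA genes antisense to Rtl1 differed by 0.04 for Mir431, -0.09 for Mir127, -0.05 for Mir434 and -0.02 for Mir136, each with overlapping groups. Mir377 read 6.19, 6.25 and 6.57 in controls against 5.93, 6.04 and 5.93 in mutants. Its groups did not overlap, and its difference of -0.37 was not called (limma adjusted p = 0.331). Among the 40 miRNA genes, Mir377 was the 1 with an unadjusted limma p under 0.05. At this mark 1.52% of all genes were lower and 4.53% higher. The groups did not overlap for 2 miRNA genes that were lower, Mir377 among them, and for 1 that was higher. Over all genes these shares were 2.85% and 7.69%. Mir377 had a mean under the median level of all genes, and the median difference of the 40 was -0.02.

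The cluster around Peg10 and Sgce on chromosome 6 held 3 of the 5 members with an unadjusted p under 0.05, and none was called over all genes. Peg10, a retrotransposon-derived gene needed for the placenta, read 10.92, 10.71 and 10.84 in controls against 11.18, 11.03 and 11.09 in mutants. The groups did not overlap, and the difference was 0.27 (95% interval 0.11 to 0.44, limma adjusted p = 0.336). Sgce encodes epsilon-sarcoglycan and is transcribed away from Peg10. It read 9.85, 10.04 and 10.08 in controls against 10.05, 10.21 and 10.31 in mutants, a difference of 0.20 with mutant replicate 1 inside the control range (limma adjusted p = 0.826). Ppp1r9a, listed as maternal though this can depend on the tissue, encodes neurabin, an actin-binding protein of synapses. It read 8.89, 8.83 and 8.96 in controls against 9.17, 8.91 and 9.19 in mutants, a difference of 0.20 (limma adjusted p = 0.823), with mutant replicate 2 inside the control range. Asb4, a substrate adaptor of ubiquitin ligases, read 6.46, 6.66 and 6.81 in controls against 6.90, 6.71 and 6.78 in mutants. Its groups overlapped at a difference of 0.15 (limma adjusted p = 1.00), which was 0.06 without control replicate 1. Calcr, the calcitonin receptor, differed by -0.06. The differences of 4 of the 5 genes were positive, beside 60.3% of all genes.

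**Figure D4:**
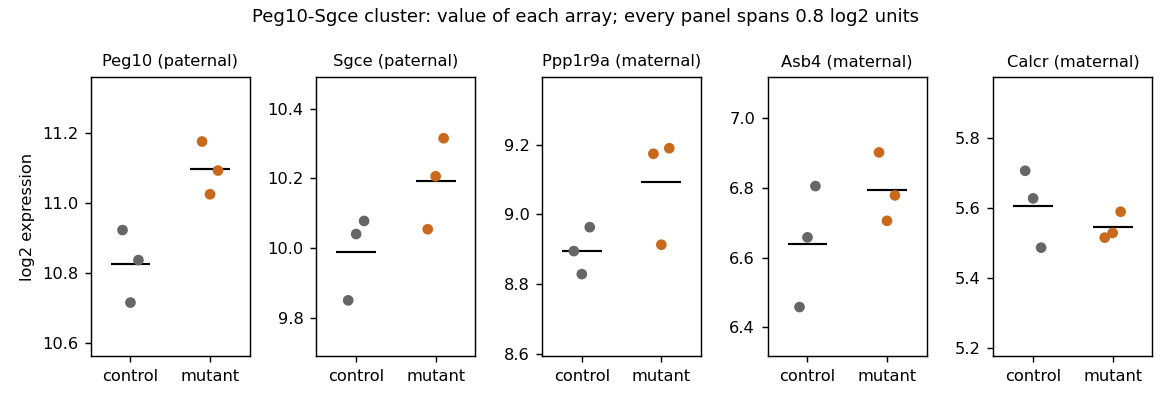
Log2 expression (y axis, the same span of 0.8 in each panel) of the 5 genes of the Peg10-Sgce cluster in each of the 3 control and 3 mutant arrays (x axis); points are arrays and lines group means. The groups are apart for Peg10, at 10.82 and 11.10 on average, and overlap for Sgce, Ppp1r9a, Asb4 and Calcr.

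In the cluster named for Snrpn and Ube3a on chromosome 7, linked in humans to the Prader-Willi and Angelman syndromes, 3 of 5 genes were measured. Mkrn3, a ring-finger gene known as a brake on puberty, read 7.27, 7.51 and 7.56 in controls against 7.64, 7.66 and 7.65 in mutants. The groups did not overlap, and the difference of 0.20 was not called (limma adjusted p = 0.727) and was 0.11 without control replicate 1, the lowest array. Ndn encodes necdin, a MAGE family protein of postmitotic neurons. It read 12.12, 12.43 and 12.09 in controls against 11.84, 12.21 and 12.03 in mutants, with overlapping groups and a difference of -0.19 (limma adjusted p = 1.00), which was -0.08 without control replicate 2. Magel2, a further MAGE family gene, differed by -0.04. The cluster's paternally expressed genes had differences of both signs.

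Igf2, the fetal growth factor, stood out through a single array. It read 9.16, 9.14 and 9.15 in controls against 10.63, 9.21 and 9.04 in mutants. Mutant replicate 1 was 1.51 above the mean of the other mutants, while mutant replicate 3 was under all controls, so the difference of 0.48 was not called (limma adjusted p = 1.00). Without mutant replicate 1 the difference was -0.02. That array was also high in a list of markers of meninges and pericytes, connective tissue cells around the brain and cells that wrap small vessels. The summed linear level of 19 such markers was 3834 to 3964 in the controls, 7134 in mutant replicate 1 and 4281 and 4252 in mutant replicates 2 and 3. Dcn, a proteoglycan gene of connective tissue, read 6.62, 6.58 and 6.62 in controls against 10.49, 8.32 and 7.27 in mutants. It was the brightest of the 19 in mutant replicate 1. Lum, a related proteoglycan gene, reached 6.90 in mutant replicate 1 against 4.50 to 4.78 elsewhere. The pericyte genes of the list were split in that array. Pdgfrb, Abcc9 and Cspg4, at 8.90, 8.31 and 7.09, lay above all controls, while Rgs5 and Kcnj8, at 8.62 and 8.32, lay inside the control range. Of the 19 markers, 18 had positive differences, none was called, their median difference was 0.27 and 8 were above the median level of all genes. Mutant replicate 1 was also the highest array for 12 endothelial markers, at 6221 against at most 5759 elsewhere, and for 12 microglia and macrophage markers, at 2159 against at most 2030. RMA values have a floor and none is 0. The part of these cells in the Igf2 value was not tested.

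Slc38a4, an amino acid transporter gene, had the next largest excess in mutant replicate 1, at 0.39. It read 6.40, 6.38 and 6.52 in controls against 6.84, 6.55 and 6.35 in mutants, with overlapping groups and a difference of 0.15 (limma adjusted p = 1.00), which was 0.02 without that array. The other 29 members had excesses from -0.28 to 0.23. Dlk1 in mutant replicate 1 was within 0.03 of the mean of the other mutants, and its difference without that array was 0.62.

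**Figure D5:**
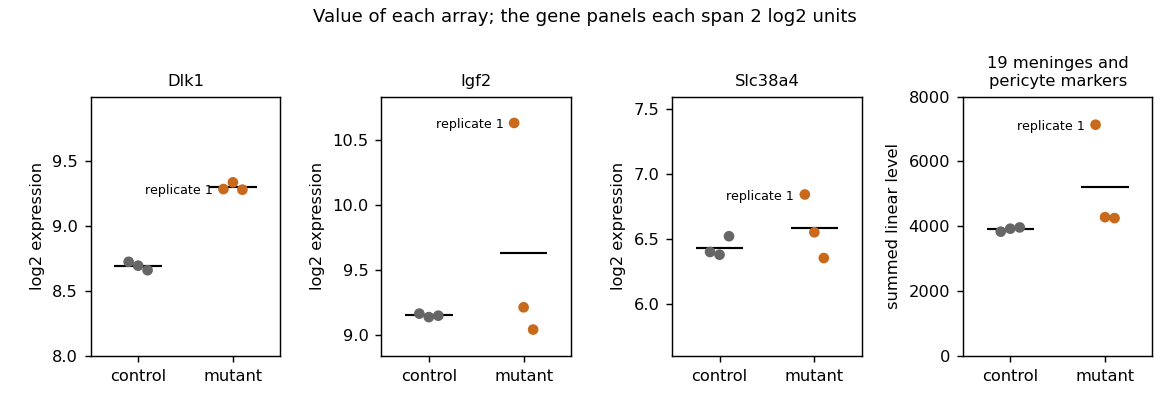
Log2 expression of Dlk1, Igf2 and Slc38a4 (y axes, each panel spanning 2 log2 units) and the summed linear level of 19 meninges and pericyte markers (y axis from 0) in each of the 3 control and 3 mutant arrays (x axes); points are arrays and lines group means. Mutant replicate 1, named beside its point, is at 10.63 for Igf2 and at 7134 for the markers, and lies with the other mutants for Dlk1.

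Other cell type markers also differed between the genotypes and are given beside the Dlk1 result. The summed linear level of 11 erythroid markers was 5588 to 6931 in the controls and 12293 to 14194 in the mutants. Of these, 6 were called higher, among them Hbb-bh1, an embryonic globin, at 5.02, Slc4a1, the red cell anion exchanger, at 1.47 and Hba-x at 1.38. The others called were Kel, Rhag and Epb42, at 0.66, 0.62 and 0.55. All 11 differences were positive, but Gata1 and Klf1 overlapped at 0.01 and 0.11. The globin genes Hbb-y and Hba-x, and Hbb-bh1 in the mutants, were the brightest of the 11 and weigh most in the sum. Whether the sum follows the number of erythroid cells or mainly these globin genes was not tested. The summed linear level of 12 microglia and macrophage markers was 1587 to 1776 in the controls and 1909 to 2159 in the mutants, with none called. Fcrls and Mrc1 had the largest differences, both 0.45, which without mutant replicate 1 were 0.33 and 0.08. Ganglionic eminence and striatum markers overlapped, at 4063 to 4838 and 4773 to 5304, and of these 13 Ebf1, at 0.88, was the 1 gene called. Markers of the hypothalamus and thalamus overlapped as well, at 2403 to 2466 and 2405 to 2541, as did those of endothelial cells and choroid plexus. Of 12 endothelial markers, 11 had positive differences and none was called. The largest difference was that of Mfsd2a, at -0.33 (limma adjusted p = 0.126). Neocortical neuron markers lay at 35286 to 36844 and 35780 to 36288. Of these 10, 5 had positive differences and none was called, and Bcl11b had the largest, at 0.29 (limma adjusted p = 0.219). The part of any of these cells in the rise of Dlk1 was not tested.

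The members outside these clusters, on other chromosomes than Bcl11a, were not called. Igf2r, the receptor that clears Igf2 from the cell surface, differed by -0.08, and Airn, the antisense RNA that silences it in cis, by -0.14. Phlda2 and Ascl2, genes of placental growth and trophoblast identity, differed by -0.08 and 0.04. The zinc finger gene Peg3 and its neighbours Usp29, a ubiquitin protease gene, and Zim1, a zinc finger gene, differed by -0.08, 0.02 and 0.11. Nnat, the proteolipid neuronatin of developing neurons, was lower in all 3 mutants than in any control by a difference of -0.08, with means of 13.06 ± 0.03 against 12.98 ± 0.04 (SD, n = 3 in each group). Its nearest arrays read 13.02 in a control and 13.01 in a mutant, and its groups overlapped after a further quantile normalization. Mest, a hydrolase family gene, and Plagl1, a zinc finger transcription factor that acts on other imprinted genes, differed by -0.08 and -0.05. Zdbf2, a zinc finger gene, read 9.90, 9.68 and 9.91 in controls against 9.59, 9.54 and 9.88 in mutants, a difference of -0.16 with overlapping groups (limma adjusted p = 1.00). Impact, a regulator of translation, Nap1l5, a nucleosome assembly family gene, and Kcnk9, a background potassium channel, differed by 0.03, -0.06 and 0.00.

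Grb10 and Ddc share chromosome 11 with Bcl11a, at 45 and 46 tested genes from it. Grb10, an adaptor that damps insulin receptor signalling, was lower in all 3 mutants, with means of 11.79 ± 0.04 against 11.68 ± 0.05 (SD, n = 3 in each group), and was not called (limma adjusted p = 0.950). Ddc, the decarboxylase that makes dopamine and serotonin, read 5.74, 5.78 and 5.62 in controls against 5.82, 5.80 and 6.002 in mutants. Its groups did not overlap at a difference of 0.16 (limma adjusted p = 0.888). The groups of both genes were apart by less than 0.05 at the nearest arrays. Commd1, a further imprinted gene, at 15 tested genes from Bcl11a, differed by 0.02. Sequence carried along with the deleted allele cannot be told apart from the genotype for genes near Bcl11a.

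Related gene lists gave no call. Of 20 factors that maintain or read imprints, among them Trim28, Dnmt1 and Ctcf at 0.00, 0.02 and 0.03, none was called. Their median difference was 0.00. The groups did not overlap for 1 of them, which was lower in the mutants, where 2.85% of all genes were apart. This was Eed, a Polycomb subunit gene, and its lowest control and highest mutant both round to 9.540. Its difference of -0.20 was -0.09 without mutant replicate 1, and Zfp57 differed by -0.10. Of 45 further imprinted genes, none was called and the median was 0.02. Positive differences were found for 31, 68.9% against 60.3% of all genes. The groups did not overlap for 6 that were higher and 2 that were lower, against 7.69% and 2.85% of all genes. An unadjusted limma p under 0.05 was met by 3 higher and 2 lower, against 4.53% and 1.52% of all genes. Th, the rate-limiting enzyme of dopamine synthesis, differed by 0.50 (limma adjusted p = 0.566) and by 0.33 without mutant replicate 1, and Rasgrf1, an exchange factor of Ras, by -0.45 (limma adjusted p = 0.353). Cdkn1c, an inhibitor of cyclin-dependent kinases, differed by 0.34 (limma adjusted p = 0.525), and by 0.21 without mutant replicate 1. Of 20 genes of Igf signalling and of the Notch receptors linked to Dlk1, none was called and the median was 0.00. The groups did not overlap for 3 that were higher and 1 that was lower, beside the same shares of all genes, 7.69% and 2.85%. Igf1, a growth factor of the same family as Igf2, differed by 0.23, and by 0.11 without mutant replicate 1. Gpc3, a glypican that binds growth factors, differed by -0.22 as mutant replicate 1 lay above all controls at 9.20 and the other mutants below them, both at 7.84. Without mutant replicate 1 its difference was -0.67.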

How the data were processed

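The submitters' processing notes name Affymetrix Expression Console and RMA, and the deposited values were taken as log2, the scale RMA gives; they lay between 3.41 and 13.8. RMA corrects background, applies quantile normalization across arrays and compresses differences of dim genes. No version or genome build was found in these notes or the labels. Gene names of probe sets came from the platform annotation in GEO, updated through Entrez numbers against RefSeq (GRCm38.p6). Of 35556 probe sets, 21789 had 1 gene, 1621 several and 12146 none listed, and per gene the brightest was kept. The genotypes were compared over 19938 genes with limma 3.58.1 (R 4.3.3; lmFit, eBayes, no covariate), two-sided, with Benjamini-Hochberg adjustment; the fit was tested on simulated data. Intervals are limma's. Arrays have no read depth, and their number limits the precision. Per the series text, each embryo gave its own RNA sample.

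The members, clusters and lists were chosen with earlier results of these data known, the parental allele comes from general knowledge, and no list was tested as a set. Values in every array are given for members past the threshold, with an unadjusted p under 0.05 or among the 12 largest differences. Other members are given by their difference, and from each related gene list the largest differences. Marker lists are given by their sums, with the called genes, some of the largest differences and, for erythroid cells, Gata1 and Klf1. Mir377, Trim28, Dnmt1, Ctcf, Cdkn1c, Commd1 and the miRNAs antisense to Rtl1 were named outside this rule after their values were seen, as were the gene order and the comparison of Dlk1 with its neighbours. Alternatives changed the normalization, covariates, weights, probe set rule, filter, threshold and arrays.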

Additional observations from a re-analysis of the deposited data

How the results depend on the processing

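Dlk1 was called in each of 14 alternative fits, with differences of 0.59 to 0.62 and adjusted p of 0.000465 to 0.0432, and stayed the 1 member called at an adjusted p under 0.1 and in a fit without dim genes and mutant replicate 1 that was added after seeing the data. In the fit with a replicate block its adjusted p was 0.0330 and 34 genes were called in all. Same-numbered arrays deviated with correlations of 0.03, -0.14 and 0.08, and 1 of 3 had its own number as best partner. With 3 arrays in each group, these values cannot decide whether same-numbered arrays were paired. The number of genes called, 57, was 24 with sex as a covariate, 217 with array weights, 13 with every probe set tested singly, 107 at an adjusted p under 0.1, and 20 to 50 with 1 array left out (33, 25 and 20 on dropping the mutant arrays numbered 3, 1 and 2, and 20 on dropping control replicate 2). The 5 members with an unadjusted p under 0.05 became 2 with median centring, sex as a covariate or probe sets tested singly (Dlk1 and Peg10 each time), 9 with array weights, and 3 to 8 with 1 array left out (3 without control replicate 1 or 2, 8 without control replicate 3). The 6 members without overlap became 7 to 14 with 1 array left out, with 14 without control replicate 3 and 10 without mutant replicate 3. Leaving out an array can only keep or raise this count, for any gene. The share over all genes was not counted for these fits, so the rise says nothing about the members. The median difference of the members was -0.0312 with sex as a covariate, -0.0410 with array weights, -0.0545 without dim genes and -0.0531 to 0.0320 with 1 array left out. The Igf2 difference ran from -0.0228 without mutant replicate 1 to 0.774 without mutant replicate 3, and this was the 1 change of sign among 149 alternative values of the 11 other members given in every array, of which none was called. With 1 array left out, Rtl1 ran from 0.10 to 0.24, Sgce from 0.13 to 0.27, Ddc from 0.10 to 0.20 and Zdbf2 from -0.27 to -0.09. Values of single list genes without mutant replicate 1 were added after seeing the data. The causes were not tested.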
